A study of Homo sapiens with 10 samples.

Results

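The transcripts measured here were those of 10 genes that carry iron into a cell, store it, release it and sense it, in a human megakaryoblastic cell line given an excess of the microRNA miR-1225-3p. The genes were TFRC, TFR2, STEAP3, SLC11A2, SLC25A37, FTH1, FTL, SLC40A1, ACO1 and IREB2. Members were found by name: every non-control probe whose transcript accession belongs to 1 of these 10 genes was taken, which gave 15 of the 42405 distinct probes, or 10 of the 35267 genes and transcripts with a probe. The cells were MEG-01, a line grown from a chronic myeloid leukemia in megakaryoblastic crisis. The 5 cultures of the miR-1225-3p group, replicates 1 to 5, received a miR-1225-3p precursor by nucleofection at 200 nM, and the 5 of the scrambled group received a scrambled precursor that served as the negative control, at the same 200 nM. RNA was taken 24 h later and hybridized to 1-colour whole genome arrays, 1 array per culture, so that both groups shared the line, the electroporation and the delivery of a synthetic RNA. No untransfected culture was analysed here, and all 10 cultures come from a single line.

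Iron bound to transferrin enters a cell through transferrin receptor 1, the product of TFRC, and is reduced in the endosome by STEAP3 before the transporter encoded by SLC11A2 moves it to the cytosol. There it is used, taken into mitochondria through mitoferrin (SLC25A37), locked inside ferritin, a shell of heavy (FTH1) and light (FTL) chains, or exported by ferroportin (SLC40A1). The iron regulatory proteins, encoded by ACO1 and IREB2, bind a short hairpin called the iron-responsive element when iron is scarce. Bound ahead of the coding region, as in the ferritin messages, they block translation; bound behind it, as in the TFRC message, they protect the message from decay. Transferrin receptor 1 is known as a marker of dividing cells and of erythroid precursors, which need much iron for heme.

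A microRNA finds its messages mainly by bases 2 to 8 of its mature strand, the seed, so the mature strand of the transfected species is shown with that seed in capitals. RefSeq places it on the minus strand at chr16:2090195-2090216 of GRCh38.p14.

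miR-1225-3p: uGAGCCCCugugccgcccccag

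The iron-responsive element that the sensing proteins read is shown for FTL, the storage gene whose first bases hold it, as the 30 bases that end 50 bases past the annotated start (chr19:48965329-48965358, plus strand, GRCh38.p14), with the loop sequence CAGTG in capitals.

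FTL: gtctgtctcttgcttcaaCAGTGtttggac

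The loop began at base 39 of the transcript. A search for the letters CAGTG on the coding strand in the 50 bases after each start found them in 2277 of 35116 RefSeq windows (6.48%). Of the 10 iron genes 7 had windows in that table, 11 windows in all, and FTH1, TFR2 and SLC25A37 had none there. Among these 11 the letters were found in the FTL window. These letters are a description of the window, since a loop sequence without its stem is not an element, and the array measures the amount of a message and not its translation.

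A spot is called detected here where the scanner software marked it as well above its background. Between 41.95% and 61.18% of the spots on an array were detected, and no spot was saturated. No 2 arrays were the same, with correlations of 0.841 to 0.992 between them. The first principal component of the normalized values carried 69.78% of the variance and put the scrambled arrays at scores from 57.14 to 82.88 and miR-1225-3p replicates 1 to 4 at scores from -146.88 to -57.14. Replicate 5 of the miR-1225-3p group scored 63.83, inside the range of the scrambled arrays. It stayed in the comparison as labelled, and the results for the 10 genes are also given without it. The array was singled out from these same values. Calls and p-values without it therefore describe the data and are not separate support. The labels of the line were checked against marker genes: of 16 megakaryocyte markers on the array 10 were detected on all 10 arrays and PF4 and TUBB1 on none. Of 15 markers of other blood cells 9 were detected on all 10 arrays, among them PTPRC, CD3D and CD79A. The summed normalized signal of the megakaryocyte markers ran from 11300 to 12300 in miR-1225-3p transfected cells and from 13400 to 15200 in scrambled cells, so these ranges did not overlap. Such a sum is weighted to its brightest probes and does not speak for each marker. The brightest was NFE2, with a mean log2 signal of 12.39 in miR-1225-3p transfected and 12.82 in scrambled cells. RUNX1 was higher in miR-1225-3p transfected cells by its brightest probe, at 11.31 against 10.85. Its other kept probes disagreed, with log2 fold changes of 0.69, 0.013, -0.61 and -1.21. The erythroid markers summed to between 210000 and 327000 against 272000 and 465000, of which HBG1 alone, a fetal hemoglobin gene, gave 95.5% to 96.9%, and without it to between 8920 and 11400 against 9680 and 15200. The markers of other blood cells summed to between 7880 and 9370 against 8610 and 15100. Called in limma at an adjusted p under 0.05 were 5 of 12 tested megakaryocyte markers (1 higher, 4 lower), 3 of 12 erythroid markers (2 higher, 1 lower) and 3 of 12 markers of other blood cells (3 higher), where 34.8% of all genes were called. Without replicate 5 these counts were 9, 6 and 7 of 12, where 55.3% of all genes were called. The part of these shifts in the results that follow was not tested, and in bulk RNA fewer cells of a kind and less RNA per cell cannot be told apart.

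Few of the iron genes moved past the threshold. All 10 genes had a probe bright enough to test, with 14 of the 15 probes kept, and 1 gene, TFR2, was called at an adjusted p under 0.05 in limma, while 9 were not. Over all genes tested by their brightest kept probe 34.8% were called, 16.8% as higher and 18.0% as lower in miR-1225-3p transfected cells. By probe, 2 of 14 were called against 35.0% of all kept probes. The median log2 fold change of the 10 genes was -0.005 and that of all kept probes -0.091, and the median size of the change, sign ignored, was 0.395 against 0.519. These sets are unlike, since the 10 genes were taken by their brightest probe and all kept probes include dimmer ones. Without replicate 5, 4 of the 10 genes were called (IREB2 and SLC25A37 higher, TFR2 and FTL lower), where 55.3% of all genes were called, 26.3% as higher and 29.0% as lower. With and without that array the share of iron genes called was below that of all genes.

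**Figure D1:**
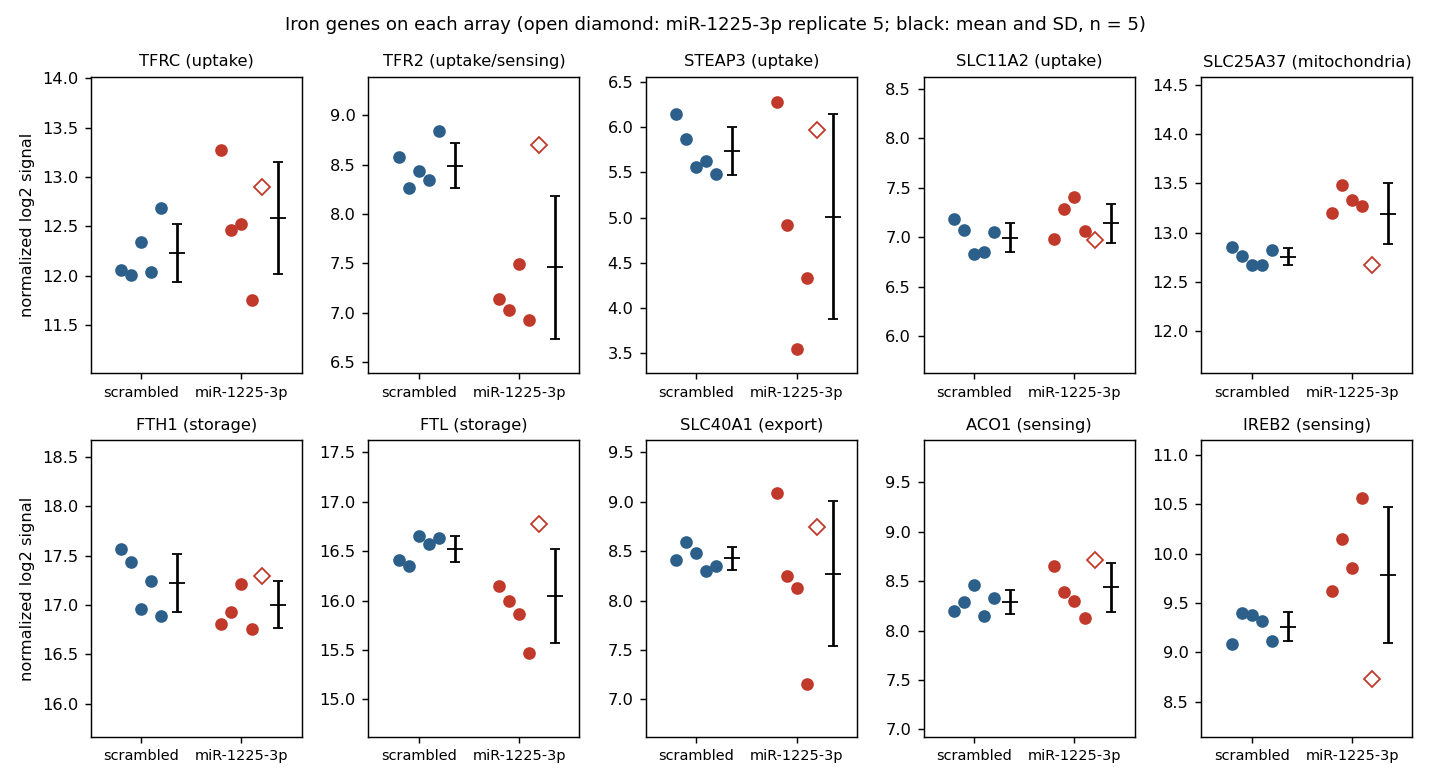
Normalized log2 signal (vertical axis, cyclic loess) of each iron gene's brightest probe on the 5 scrambled arrays (blue) and the 5 miR-1225-3p arrays (red), with the mean and SD (n = 5) in black and miR-1225-3p replicate 5 as an open diamond. TFR2 sits between 6.93 and 7.49 in miR-1225-3p replicates 1 to 4 and between 8.26 and 8.84 in scrambled cells, with replicate 5 at 8.7 among the scrambled values.

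TFRC encodes transferrin receptor 1, the main door for iron in blood precursors. Its normalized log2 signal was 13.27, 12.46, 12.52, 11.75 and 12.9 on miR-1225-3p arrays 1 to 5 and 12.06, 12.01, 12.34, 12.04 and 12.69 on scrambled arrays 1 to 5. The miR-1225-3p arrays spread over the whole scrambled range and beyond it at both ends. The group means were 12.58 ± 0.569 and 12.22 ± 0.292 (SD, n = 5 each), a log2 fold change of 0.36 (SE 0.271, 95% interval -0.25 to 0.96, adjusted p = 0.308), and 0.27 without replicate 5 (adjusted p = 0.432). The probe was printed 10 times on each array, and these copies had an SD of 0.0326 to 0.0946 within an array, less than the SD between cultures of either group. With each array scaled to its 75th percentile in place of cyclic loess the TFRC change was 0.90 (adjusted p = 0.0153), the only alternative of 27 that took it past the threshold.

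TFR2 encodes transferrin receptor 2, a relative of TFRC with lower affinity for its ligand that is known in hepatocytes and erythroid precursors as part of the machinery that senses circulating iron. Its normalized log2 signal was 7.14, 7.03, 7.49, 6.93 and 8.7 on miR-1225-3p arrays 1 to 5 and 8.58, 8.26, 8.43, 8.34 and 8.84 on the scrambled arrays. Replicates 1 to 4 lay below every scrambled array and replicate 5 lay among them, so that the groups overlapped by that single array. TFR2 fell from 8.49 ± 0.23 to 7.46 ± 0.724 (SD, n = 5 each), a log2 fold change of -1.03 (2.04-fold lower, SE 0.315, 95% interval -1.73 to -0.33, adjusted p = 0.0329), and the two-sided exact permutation test gave p = 0.0397. Of all kept probes 15.8% had a fold change as low or lower. Without replicate 5 the change was -1.34 (2.53-fold lower, adjusted p = 0.000215). The call did not survive the loss of any other array: leaving out each of the other 9 in turn gave log2 fold changes of -1.09 to -0.90 and adjusted p from 0.0535 to 0.0805. On slide 1, which held 2 arrays of the miR-1225-3p group and 3 of the scrambled group, the change was -1.53 (adjusted p = 0.0137), and on slide 2, which held replicate 5, it was -0.59 (adjusted p = 0.588).

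STEAP3, the endosomal reductase that turns ferric into ferrous iron, was dim. Its brighter probe was detected on 3 of 5 miR-1225-3p arrays and on all 5 scrambled arrays, with signals of 6.28, 4.92, 3.55, 4.33 and 5.97 against 6.14, 5.87, 5.56, 5.63 and 5.48. Replicates 2, 3 and 4 of the miR-1225-3p group were below the scrambled range, replicate 5 was inside it and replicate 1 was above it. The log2 fold change was -0.73 (SE 0.47, adjusted p = 0.232), and -0.97 without replicate 5 (adjusted p = 0.103). With a background correction (normexp) of the median signal it was -0.096 (adjusted p = 0.645 in limma). Within slide 1 it was -0.13 and within slide 2 -1.14, so its size depended on the processing and the arrays. The other STEAP3 probe was detected on none of the miR-1225-3p arrays and on 1 scrambled array, and was not tested.

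SLC11A2 encodes DMT1, the transporter that carries ferrous iron out of the endosome, and its 2 probes disagreed. The brighter one read 6.98, 7.28, 7.41, 7.06 and 6.97 on miR-1225-3p arrays against 7.18, 7.07, 6.83, 6.85 and 7.05, a log2 fold change of 0.14 (SE 0.14, 95% interval -0.17 to 0.45, adjusted p = 0.426) and 0.18 without replicate 5 (adjusted p = 0.265). The dimmer one read 5.38, 5.21, 3.65, 4.35 and 6.19 against 6.45, 6.24, 6.77, 6.37 and 6.37. Here every miR-1225-3p array was below every scrambled array, a pattern that 12.6% of all kept probes with no missing value showed in 1 direction or the other. The signal of this probe fell by 1.49 on the log2 scale (SE 0.406, adjusted p = 0.0241, exact permutation p = 0.00794, the smallest that 5 against 5 arrays can give), and its change was -1.79 without replicate 5. It was detected on 3 of the 5 miR-1225-3p arrays, so the lowest values there are near the detection limit and the size of its fall is uncertain. Both probes are annotated to the same transcript. The mean of the probes gave a change of -0.67 (adjusted p = 0.0292 in limma), past the threshold, while the brighter probe alone did not pass. Since the 2 probes disagreed, no direction is given for the gene.

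SLC25A37 encodes mitoferrin 1, which brings iron into the mitochondria of erythroid cells for heme and iron-sulfur clusters. The signal was 13.2, 13.48, 13.33, 13.27 and 12.67 on miR-1225-3p arrays and 12.86, 12.76, 12.67, 12.67 and 12.82 on scrambled arrays. Replicates 1 to 4 were above every scrambled array and replicate 5 was level with the lowest of them. The log2 fold change was 0.43 (1.35-fold higher, SE 0.162, 95% interval 0.075 to 0.79) and missed the threshold (adjusted p = 0.0585, exact permutation p = 0.0476 for the single value). Without replicate 5 it was 0.56 (1.48-fold, adjusted p = 0.00195) and past it. Of the 27 alternatives 5 called it, and none changed its direction.

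**Figure D2:**
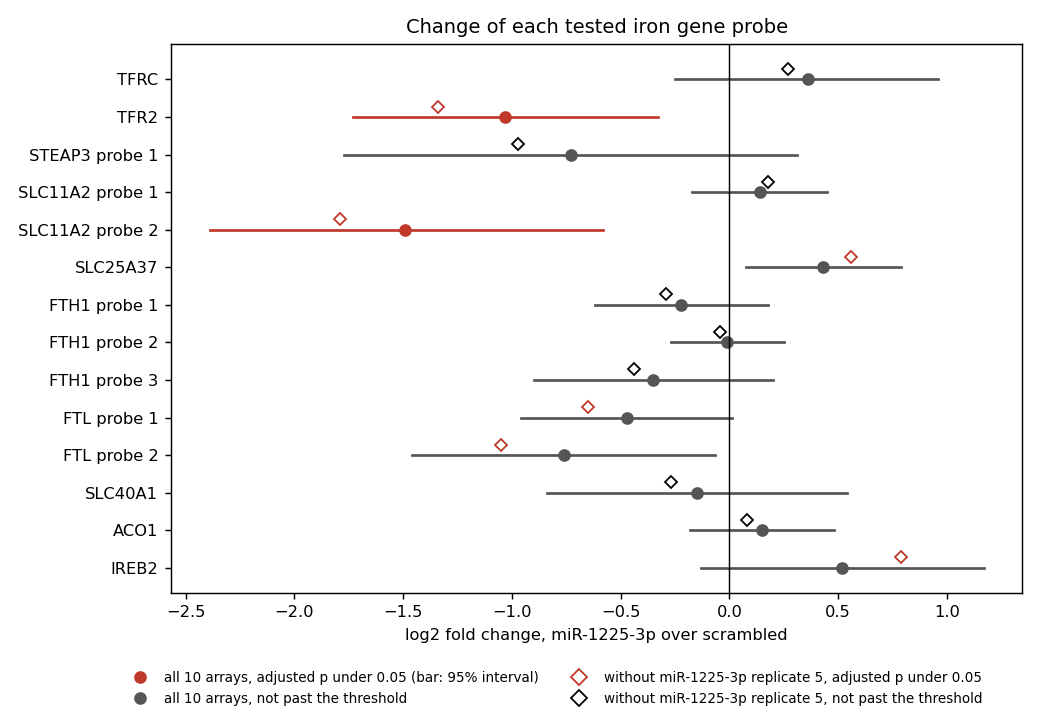
Log2 fold change (horizontal axis, miR-1225-3p over scrambled) of each of the 14 tested probes with its 95% interval on all 10 arrays (filled circles) and without miR-1225-3p replicate 5 (open diamonds), red where the adjusted p was under 0.05. TFR2 at -1.03 and the dimmer SLC11A2 probe at -1.49 are red on all 10 arrays, and SLC25A37, IREB2 and both FTL probes turn red without replicate 5.

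Ferritin is the store that keeps free iron low. FTH1, the heavy chain with the ferroxidase site, had 3 probes. The brightest read 16.81, 16.93, 17.21, 16.76 and 17.29 on miR-1225-3p arrays and 17.57, 17.43, 16.96, 17.24 and 16.89 on scrambled arrays, and the groups overlapped widely. Its log2 fold change was -0.22 (SE 0.179, 95% interval -0.62 to 0.18, adjusted p = 0.338), and the other FTH1 probes gave -0.011 (adjusted p = 0.944) and -0.35 (adjusted p = 0.278). Without replicate 5 the 3 FTH1 probes gave -0.29, -0.042 and -0.44, with adjusted p from 0.173 to 0.75. FTH1 has many near-identical processed copies in the genome that such probes may also bind, so its values are uncertain to that extent.

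FTL, the light chain that helps form the mineral core, had 2 probes that lay lower in miR-1225-3p replicates 1 to 4. The brighter read 16.15, 16, 15.86, 15.47 and 16.77 on miR-1225-3p arrays and 16.41, 16.35, 16.65, 16.57 and 16.63 on scrambled arrays. Replicates 1 to 4 were below all scrambled arrays and replicate 5 was above all of them. The log2 fold change was -0.47 (SE 0.218, adjusted p = 0.109), and -0.65 without replicate 5 (1.57-fold lower, adjusted p = 0.00614). The dimmer FTL probe read 15.49, 15.26, 15.15, 14.63 and 16.56 against 15.88, 15.94, 16.29, 16.3 and 16.49, with a log2 fold change of -0.76 (adjusted p = 0.0782) and of -1.05 without replicate 5 (adjusted p = 0.00205). The direction of the brighter FTL probe and of the brightest FTH1 probe changed with the scaling: with each array scaled to its 75th percentile they were 0.25 (adjusted p = 0.153) and 0.54 (adjusted p = 0.109).

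SLC40A1 encodes ferroportin, the only known iron exporter of mammals. The signal was 9.09, 8.25, 8.13, 7.15 and 8.74 on miR-1225-3p arrays and 8.41, 8.59, 8.48, 8.3 and 8.35 on scrambled arrays. The scrambled arrays had an SD of 0.115 around their mean of 8.43, while the miR-1225-3p arrays had an SD of 0.735 and lay on both sides of them. The log2 fold change was -0.15 (SE 0.31, 95% interval -0.84 to 0.54, adjusted p = 0.708), and -0.27 without replicate 5 (adjusted p = 0.496). It was 0.13 without miR-1225-3p replicate 4, 0.072 with 75th percentile scaling and 0.045 with quantile normalization. This probe was also printed 10 times per array, with an SD between copies of 0.0395 to 0.121.

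ACO1 encodes the cytosolic aconitase that turns into iron regulatory protein 1 when it loses its iron-sulfur cluster. Its signal ran from 8.13 to 8.72 in miR-1225-3p transfected cells and from 8.15 to 8.46 in scrambled cells, with a log2 fold change of 0.15 (SE 0.147, 95% interval -0.18 to 0.48, adjusted p = 0.423) and of 0.081 without replicate 5 (adjusted p = 0.622). IREB2 encodes iron regulatory protein 2, which is controlled by degradation when iron is plentiful. It read 9.62, 10.15, 9.85, 10.56 and 8.73 on miR-1225-3p arrays and 9.08, 9.4, 9.38, 9.32 and 9.12 on scrambled arrays. Replicates 1 to 4 were above all scrambled arrays and replicate 5 was below all of them. The IREB2 log2 fold change was 0.52 (SE 0.293, 95% interval -0.13 to 1.17, adjusted p = 0.174) and 0.79 without replicate 5 (1.72-fold higher, adjusted p = 0.00679).

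Levels of different probes cannot be set against each other, but the change of a ratio within an array can be compared between groups. Among the 45 pairs of the 10 genes 3 log2 ratios did not overlap between groups, with the lowest exact permutation p of 0.00794 and an adjusted p of 0.119 over the 45 pairs, so no pair passed. That p is the smallest that 5 against 5 arrays can give, and 3 pairs at it do not pass on their own. By the same permutation test 16 of the 45 pairs had an unadjusted p under 0.05. TFRC over TFR2 shifted by 1.38, TFRC over FTL by 0.83 and FTL over ACO1 by -0.62, all on the log2 scale, and by 1.61, 0.93 and -0.73 without replicate 5. With quantile normalization TFRC over TFR2 (1.26) and TFRC over FTL (0.65) did not overlap either, while FTL over ACO1 (-0.56) did. A scaling by 1 value per array cancels in such a ratio, so 75th percentile scaling and no normalization are the same check: there TFRC over TFR2 (1.75) did not overlap, and TFRC over FTL (0.64) and FTL over ACO1 (-0.12) did. These pairs were singled out after their values were seen.

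**Figure D3:**
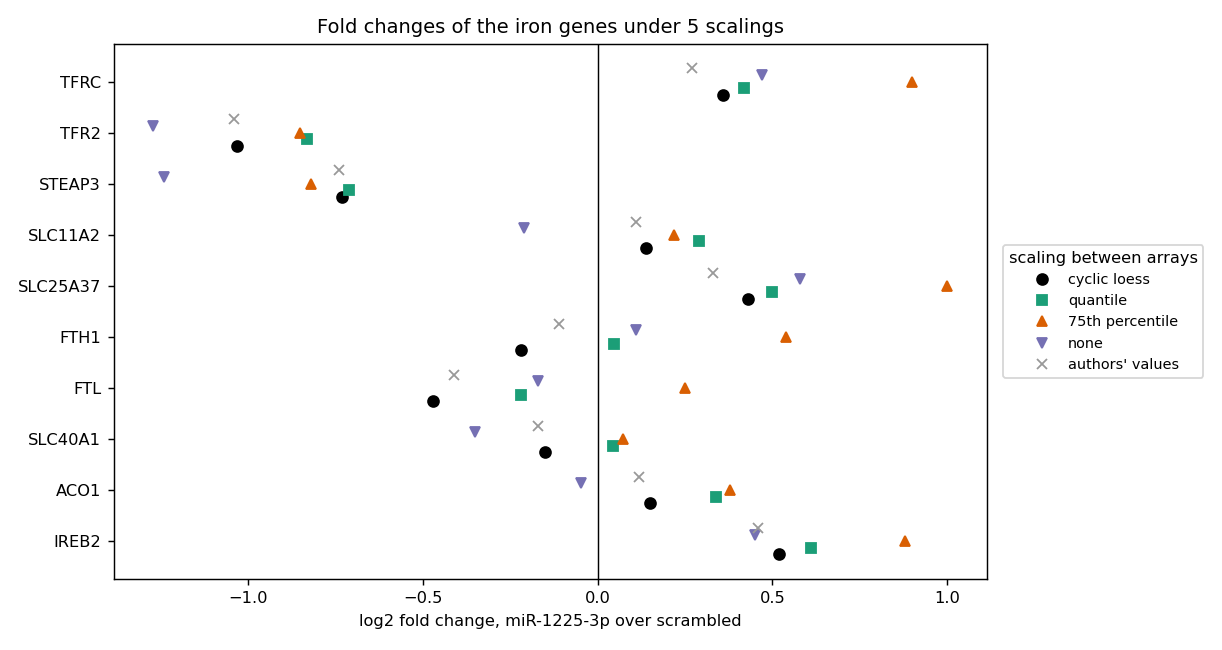
Log2 fold change (horizontal axis, miR-1225-3p over scrambled) of each iron gene's brightest probe under cyclic loess, quantile, 75th percentile and no normalization of the processed signals and in the authors' normalized values. TFR2 and STEAP3 are left of 0 and TFRC, SLC25A37 and IREB2 right of 0 under each of the 5, while FTH1, FTL, SLC40A1, ACO1 and SLC11A2 have at least 1 value on each side.

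The scaling between arrays moved the fold changes, by different amounts for different genes. The median log2 fold change over all kept probes was -0.091 with cyclic loess, 0.045 with quantile normalization, 0.11 with 75th percentile scaling and -0.31 with none, and that of the 10 iron genes was -0.0046, 0.17, 0.32 and -0.11 in that order. The median of the iron genes, each by its brightest probe, was above that of all kept probes, dimmer ones included, under each of the 4. Of the probes called, 46.4% were higher with cyclic loess (3356 higher, 3871 lower) and 61.1% with 75th percentile scaling (5135 higher, 3267 lower). TFR2 was lower under each scaling, by 0.83 to 1.27 on the log2 scale.

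The wider iron network held 95 other genes in 6 lists, of which 91 were on the array and 75 could be tested. Of these 75, 14 rose and 9 fell, 23 in all, beside the 34.8% called over all genes, and their median log2 fold change was 0.13. With 75th percentile scaling 29 rose and 6 fell, where 5135 of all 20640 kept probes rose and 3267 fell. With the mean of a gene's kept probes in place of its brightest 12 rose and 13 fell, where 2782 of all 17373 genes rose and 3278 fell. Without replicate 5, 23 rose and 18 fell, where 55.3% of all genes were called, 26.3% as higher and 29.0% as lower. Genes are named where their change was among the largest of those called and detected on all 10 arrays. Without replicate 5 the 6 named rises ran from 0.88 to 1.76 and the 6 named falls from -2.29 to -0.52 on the log2 scale, with adjusted p from 4.69e-05 to 0.00739.

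Iron-sulfur clusters are built in mitochondria and are the main use of iron there besides heme. Of 26 tested genes of cluster assembly 6 rose, none fell and 20 did not pass, with a median of 0.28. Over all genes 16.8% were called as higher and 18.0% as lower. At an unadjusted p under 0.05 limma had 12 higher and 1 lower, beside 10181 of all 20640 kept probes in either direction. Without replicate 5, at the adjusted threshold, there were 14 rises and 4 falls, where 26.3% of all genes rose and 29.0% fell. These counts rest on the brightest probes. Other kept probes of these genes went both ways, from -1.52 (ISCA1) to 0.83 (BOLA3). IBA57, which acts late in the assembly of 4-iron clusters, rose by 1.45 on the log2 scale (2.73-fold, SE 0.315, adjusted p = 0.0154) and its groups did not overlap. NFU1, a cluster carrier, rose by 0.89 (adjusted p = 0.029). NDOR1, an electron donor of the cytosolic branch, rose by 0.87 (adjusted p = 0.0145), although its second kept probe gave -0.19.

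Among the iron chaperones and ferritin handlers 12 genes were tested, of which 2 rose, 2 fell and 8 did not pass. Without replicate 5, 2 rose and 3 fell. Over all genes 34.8% were called, and 55.3% without replicate 5. PCBP1, the RNA-binding protein that also loads iron into ferritin, fell by 1.40 on the log2 scale (2.65-fold, SE 0.351, adjusted p = 0.0194), from 13.41 ± 0.122 to 12 ± 0.847 (SD, n = 5 each). Its relative PCBP2 fell by 0.59 in its brightest probe (adjusted p = 0.024), and its other probes gave -1.86 and 0.14. GLRX3, a glutaredoxin that binds iron-sulfur clusters, rose by 0.97 (1.96-fold, adjusted p = 0.0148) without overlap between the groups.

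Of 11 tested carriers, reductases and oxidases 2 rose and 3 fell, with a median of -0.41 and the same counts without replicate 5. For this list and the next, the share called over all genes was 34.8%, and 55.3% without replicate 5. SLC22A17, a receptor for the siderophore-binding protein lipocalin 2, fell by 1.55 (2.92-fold, adjusted p = 0.0359), and HEPH, the ferroxidase hephaestin that works beside ferroportin, fell by 0.66 (adjusted p = 0.0339). Of 11 tested sensing and hepcidin axis genes 2 rose and 3 fell, and 2 and 5 did without replicate 5. CISD1, a protein of the outer mitochondrial membrane that holds an iron-sulfur cluster, rose by 0.89 (adjusted p = 0.0169). BMP6, the ligand that drives hepcidin in the liver, fell by 0.51 (adjusted p = 0.0205). HERC2, a ubiquitin ligase, fell by 1.81 in its brightest probe (3.5-fold, adjusted p = 0.0242), while its other kept probes gave -0.62 and -0.18.

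Of the endocytic proteins that carry the transferrin receptor 1 of 9 tested genes was higher and none lower in limma, with a median of 0.01 and the same counts at an unadjusted p under 0.05. Without replicate 5, 1 was higher and 1 lower. Here and for the list that follows, 34.8% of all genes were called, and 55.3% without replicate 5. Of 7 tested messages that carry or were listed with an iron-responsive element, apart from the members, 1 rose and 1 fell, and 2 and 2 did without replicate 5. CDC14A, a phosphatase, rose by 0.81 (1.75-fold, adjusted p = 0.0144) without overlap. ALAS2, the first enzyme of erythroid heme synthesis, differed by 0.32 on the log2 scale (adjusted p = 0.151) and EPAS1, a hypoxia-inducible factor, by -0.12 (adjusted p = 0.554). PFN2, an actin-binding profilin, fell from 7.22 ± 0.357 to 4.82 ± 1.6 (SD, n = 5 each, adjusted p = 0.0235), and since it was detected on 2 of 5 miR-1225-3p arrays no fold is given. CDC42BPA, a kinase detected on 3 of the 5 miR-1225-3p arrays, had a change of -0.82 (adjusted p = 0.0593).

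Likeness across the 10 arrays was described for the main uptake and storage genes. The kept probes of other genes with the highest Pearson correlation to TFRC were those of an unnamed transcript (0.961), FKBP14 (0.952) and DDIT4 (0.951). For FTH1 they were TFE3 (0.991) and probes of 2 long intergenic RNAs (0.99 and 0.989). The 10 points share 2 slides, 1 normalization and the division into groups, and these were the highest of 20640 correlations each.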

How the data were processed

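MEG-01 cells were profiled by the authors on Agilent 1-colour arrays, and per the file headers the images were read with Agilent Feature Extraction 10.7.3.1. The deposited scanner files hold processed signal intensity, median signal, background and flags for 58717 non-control spots per array, with no step between arrays. A deposited table holds the authors' normalized log2 values (29271 probes, column medians 4.77 to 5.15), whose exact scaling and centring are not stated in the table, and it served as an alternative only. Its values correlated with those computed here at 0.981 to 0.996 per array after centring. The deposited flag columns (other) mark spots well above background, saturated or outlying. Groups follow the sample titles: the scrambled samples carry a source label of no treatment, but their titles name the scrambled precursor. The titles call the samples of a group biological replicates, all of 1 cell line, so p-values measure the spread between cultures of that line.

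Control spots were left out, and log2 signals of all other spots were normalized by cyclic loess (3 iterations). Outlier spots were then set missing and the spots of a probe averaged. Probes were kept where a group had at least 3 arrays with the probe detected (20640 probes, 17373 genes). A probe counted as detected where at least 0.5 of its spots were flagged well above background. Groups were compared with limma 3.58.1 in R 4.3.3 (lmFit and eBayes, two-sided, Benjamini-Hochberg over all kept probes, threshold 0.05), and a gene was represented by its brightest kept probe. The methods' own rule, cyclic loess and a t-test, guided the normalization; here the t-test is an alternative. The number of arrays limits the precision. Single values were also compared by a two-sided exact permutation test (252 arrangements). Alternatives covered scaling, background correction, filters, choice of probe, test, array weights, blocks, slides and each array left out. Script steps were tested on simulated data.

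The 10 genes, the other iron lists and the markers were chosen with earlier results of these data known. Other iron genes were named by rule: by log2 fold change the top 6 upward and the top 6 downward, if called and detected on all 10 arrays, plus genes listed with an iron-responsive element. Symbols come from RefSeq accessions matched to a GRCh38.p14 gene table; 24910 probes matched, and 11990 of the genes kept have a symbol. Some items are not reported here.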

Additional observations from a re-analysis of the deposited data

How the results depend on the processing

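Over the 10 genes and up to 27 alternatives each, 232 of 269 values kept their direction and side of the threshold, 14 lost the call, 12 gained one and 11 changed sign. All 14 lost calls were of TFR2, whose log2 fold change ran from -1.53 to -0.59 (adjusted p 4.2e-05 to 0.588). They came without any array but miR-1225-3p replicate 5, with no normalization (0.123), no filter on dim probes (0.0662), the methods' t-test (0.0555), slide 2 alone (0.588) and the replicate number as a block (0.0503). The signs that changed were those of SLC40A1 (0.072 with 75th percentile scaling, 0.045 with quantile, 0.26 within slide 1, and -0.36 to 0.13 with single arrays left out), ACO1 (-0.046 with no normalization), SLC11A2 (-0.21 with no normalization, -0.67 as the mean of its probes), FTL (0.25 with 75th percentile scaling) and FTH1 (0.54 with 75th percentile scaling, 0.046 with quantile, 0.11 with none). The cause was not tested.

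The counts moved more. Leaving out single arrays gave 2281 to 11520 probes called in all (7227 on all arrays), 0 to 6 iron gene probes (2), 0 to 4 iron genes (1) and 6 to 41 other iron genes (23). In the same order the counts were 1224, 0, 0 and 1 with no normalization, 4014, 1, 0 and 11 with no filter, and 13984, 8, 6 and 52 with array weights, which were estimated from the same values. With 75th percentile scaling 8402 of 20640 probes were called in all, with 5 iron gene probes, 3 iron genes and 35 other iron genes. The iron gene count was 2 when a probe had to be detected on all 10 arrays (5393 of 13778 probes called in all). It was 2 for averaged probes (6060 of 17373 genes) and 2 with trend and robust eBayes (7484 of 20640 probes). The t-test called 1 iron gene probe and 0 iron genes, beside 5481 of 20640 probes in all. At an unadjusted p under 0.05 the t-test had 2 iron genes, of which TFR2 had 0.0164, beside 9873 probes in all. Where no normalization, no filter or a left-out array gave 0 iron genes in limma, 1 to 3 had an unadjusted p under 0.05. Within slide 1 14 other iron genes were called, beside 5557 of 20640 probes in all. Within slide 2, which has 3 miR-1225-3p and 2 scrambled arrays, limma called 0 of all probes, 0 iron gene probes, 0 iron genes and 0 other iron genes, and 1395, 0, 0 and 2 at an unadjusted p under 0.05.

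Replicate numbers are shared between the groups, but deviations of same-numbered arrays from their group means correlated at -0.401 to 0.0585, so the numbers did not pair the arrays. With the replicate block limma called 0 probes in all, 0 iron gene probes, 0 iron genes and 0 other iron genes at an adjusted p under 0.05, and 8992, 3, 1 and 30 at an unadjusted one.

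Signal over background limits STEAP3 and the dimmer SLC11A2 probe, which were detected on 3 of the 5 arrays of the miR-1225-3p group.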
